A study of Homo sapiens with 15 samples.

Results

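K562 cells treated with 1 mM valproic acid for 72 h were compared with untreated K562 cells of the same time point. K562, named DNSZ K562 in the labels, is a human erythroleukemia line grown from chronic myeloid leukemia in blast crisis. The comparison was made up of the 3 arrays labelled 72 h, out of 15 arrays in the series, where each of 5 times (2, 6, 10, 48 and 72 h) had 3 arrays. Each array carried RNA of treated cells in one dye and RNA of untreated cells of that time in the other, so every value is a ratio of treated over untreated RNA. Treated RNA was in Cy5 on replicates 1 and 2 and in Cy3 on replicate 3, the dye swap. Each replicate came from a different thawing of the line, 10 days before treatment. The untreated cells carried no named vehicle in the labels. The line is a single leukemic one, which limits the comparison as a model of blood formation.

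Valproic acid is a branched short-chain fatty acid used against epilepsy that inhibits histone deacetylases, the enzymes that take acetyl groups off lysines in histone tails. With these enzymes inhibited, acetylated histones build up, and the transcription of many genes shifts in both directions. K562 cells are blocked early in red cell formation and can be pushed toward hemoglobin production or toward other blood lineages by several compounds.

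The 3 arrays of 72 h were compared with all others over 18334 genes before any test. Replicate 1 of 72 h correlated with replicates 1, 2 and 3 of 48 h at Pearson r of 0.88, 0.94 and 0.83, and with replicates 2 and 3 of its own time at 0.73 and 0.76. Replicates 2 and 3 of 72 h correlated with each other at 0.74. Replicate 2 of 72 h correlated with the 48 h arrays at 0.65, 0.71 and 0.67, and replicate 3 at 0.67, 0.76 and 0.82. The array labelled 72 h replicate 1 was thus closer to all 48 h arrays than to either array of its own time. Its label was kept, and results are also given without it. Counted gene by gene, replicate 1 lay more than 0.5 beyond both other 72 h arrays for 394 genes, replicate 2 for 493 and replicate 3 for 469. The dye-swapped replicate 3 correlated positively with replicates 1 and 2, and its ratios were taken as deposited in the same direction.

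**Figure D1:**
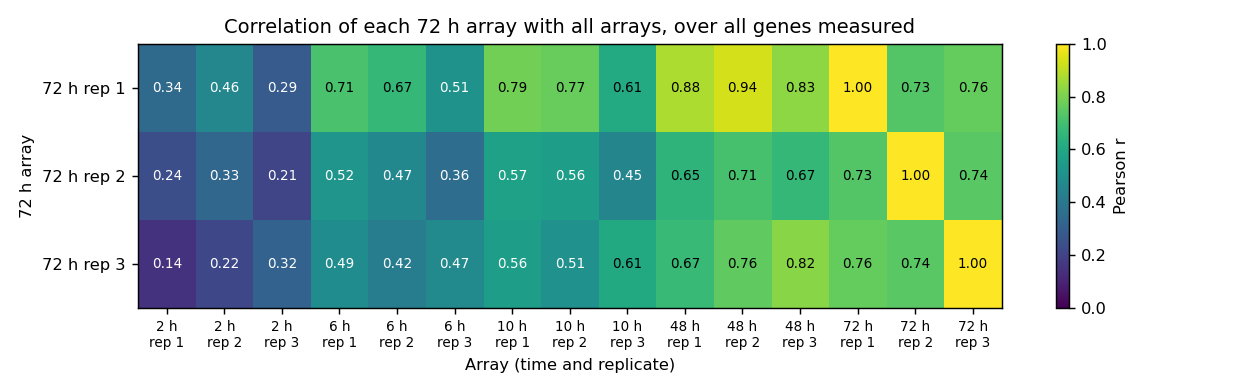
Pearson correlation over 18334 genes between each 72 h array (rows) and all 15 arrays (columns, by time and replicate), with the colour scale running from 0 to 1. The row of 72 h replicate 1 reads 0.88, 0.94 and 0.83 against the 48 h arrays and 0.73 and 0.76 against the other 72 h arrays.

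After 72 h of valproic acid, 4060 genes were higher and 2499 lower in treated than in untreated cells, which is 22.1% and 13.6% of the 18334 genes tested (limma, adjusted p under 0.05). Large changes were almost all increases. At least 2-fold higher were 412 genes (2.25%), against 17 at least 2-fold lower (0.0927%), and 71 genes (0.387%) were at least 4-fold higher against 1 (0.00545%) lower. Most changes were small, with a median of 0.38 on the log2 scale among genes called higher and −0.30 among those called lower, beside 0.013 over all genes. Of the genes called higher, 3776 were above 0 on 3 of 3 arrays, and of those called lower 2249 were below 0 on 3 of 3. Without the array labelled 72 h replicate 1, 3532 genes were higher (19.3%) and 2366 lower (12.9%), together 32.2% of all genes, and 42 rather than 17 were at least 2-fold lower. Without replicate 3, 2833 were higher and 1380 lower. From the 72 h arrays alone, whose 2 residual degrees of freedom leave a less certain spread, 2091 were higher (11.4%) and 908 lower (4.95%). In that fit 68 of 242 genes followed through all settings lost their call, among them S100P, FUT1, HBD, KLF1, INCENP, H1-4 and HDAC1. The 72 h arrays scattered more than most, with limma array weights of 0.615, 0.392 and 0.763 where the other 12 arrays had 0.574 to 2.74, so that standard errors pooled over all times may be too small at 72 h. With these weights 3533 genes were higher (19.3%) and 1981 lower (10.8%), together 30.1%. A set of 3709 genes, 2545 higher and 1164 lower, kept 1 sign on the 3 arrays and were called with all arrays, with array weights and without each 72 h array in turn.

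Genes are named here among those called with array weights and without each 72 h array in turn, leaving out pseudogenes and symbols of unnamed reading frames or long intergenic RNAs. The 14 highest of these in treated cells were led by CRYM, which encodes mu-crystallin, a binder of thyroid hormone. CRYM had log2 ratios of 4.02, 3.47 and 4.77 on replicates 1, 2 and 3, a fitted ratio of 4.10 ± 0.20 (SE; adjusted p = 1.69e-08), or 17.1-fold over untreated. PLAAT3, a phospholipase and acyltransferase, read 3.86, 3.46 and 4.17 and was fitted at 3.89 ± 0.095 (adjusted p = 5.50e-11). All 3 arrays put both genes more than 10-fold above untreated cells. TMSB15A, a thymosin that binds actin monomers, read 4.12, 3.83 and 3.75, and S100A10, the calcium-binding partner of annexin A2, read 3.82, 3.93 and 3.81, with fitted ratios of 3.86 ± 0.098 and 3.82 ± 0.089. The 3 arrays of S100A10 differed by little over 0.1. MARCKS, a substrate of protein kinase C that crosslinks actin, was uneven, with 4.31, 2.60 and 3.21 on replicates 1, 2 and 3 (3.34 ± 0.23; adjusted p = 2.27e-07). Also among the 14 were AIF1L, an actin-bundling protein (3.36 ± 0.15), IGFBP2, which binds insulin-like growth factors (3.31 ± 0.14), the matrix glycoprotein gene EMILIN2 (3.05 ± 0.15) and ASPHD1 (2.95 ± 0.18). They also held the metallothionein gene MT2A (2.93 ± 0.17), SLFN11, a factor that blocks stressed replication forks (2.85 ± 0.17), and REEP2, which shapes the endoplasmic reticulum (2.77 ± 0.12). ARAP3 (2.76 ± 0.085) and TIMP2, an inhibitor of matrix metalloproteinases (2.75 ± 0.15), completed the 14. These 14 were each higher on 3 of 3 arrays and called without any single 72 h array, with an adjusted p of at most 2.27e-07.

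The lowest of these genes was S100P, a calcium-binding protein of the S100 family, with log2 ratios of −0.37, −3.32 and −2.65 on replicates 1, 2 and 3. It was fitted at −2.14 ± 0.36 (SE; adjusted p = 4.74e-04) and at −2.98 without replicate 1, which alone lay near the level of 48 h (a fitted −0.61, not called). LTB, the membrane-bound lymphotoxin beta, read −1.64, −1.69 and −1.02 (−1.40 ± 0.14; adjusted p = 7.05e-06) and TNFRSF8, the receptor CD30, read −1.22, −1.24 and −1.46 (−1.28 ± 0.12; adjusted p = 3.35e-06). Both were lower by more than 1 on every array. TERT, the catalytic subunit of telomerase, read −1.25, −1.07 and −1.39 (−1.20 ± 0.14; adjusted p = 2.20e-05). ZCWPW1, a reader of histone methylation (−1.20 ± 0.13), PKP3, a plakophilin of desmosomes (−1.18 ± 0.085), OPLAH, the 5-oxoprolinase of glutathione turnover (−1.17 ± 0.082), and the mitochondrial phospholipase gene PLD6 (−1.12 ± 0.099) followed. FUT1, the fucosyltransferase that makes the H blood group antigen, read −0.16, −1.74 and −1.41 (−1.12 ± 0.20, and −1.57 without replicate 1). As with S100P, replicate 1 stood apart from the other replicates. The noncoding RNA gene EPB41L4A-AS1 read −0.68, −1.96 and −0.81, with replicate 2 far below the other replicates. PLCD1, a phospholipase C (−1.10 ± 0.12), OR51B5, an olfactory receptor gene beside the beta-globin cluster (−1.07 ± 0.10), FAM136A, which encodes a mitochondrial protein (−1.06 ± 0.095), and EPCAM, an epithelial adhesion molecule (−1.05 ± 0.07), were the rest of the 14 lowest. Each had 1 sign on 3 of 3 arrays and an adjusted p of at most 6.29e-04.

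**Figure D2:**
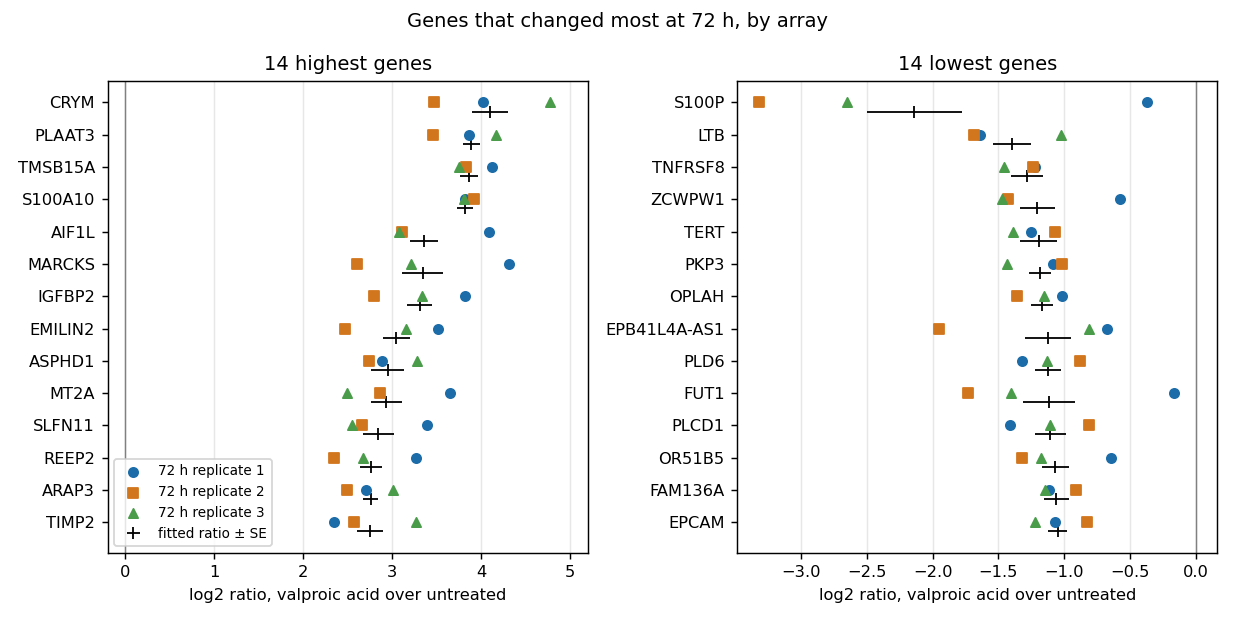
Log2 ratios of treated over untreated cells at 72 h for the 14 highest genes (left) and the 14 lowest (right), with one point per array and a black bar for the fitted ratio ± SE below each row of points. S100P and FUT1 lie near 0 on replicate 1 (−0.37 and −0.16) and below −1.4 on replicates 2 and 3.

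Gene groups were described by 42 lists holding 1270 distinct genes, of which 1184 were measured. A list is given by the number of its measured genes called in each direction, to be read beside the 22.1% of all genes called higher and 13.6% called lower, and by its median, to be read beside 0.013 for all genes. Counts without 72 h replicate 1 follow in brackets or in the next sentence. From the 72 h arrays alone, 46 of 84 list counts, higher and lower, changed by a factor over 1.5 or to or from 0. In that fit 12 mitosis and 7 DNA replication genes were lower, 5 replication-dependent histone genes were higher and 0 globin genes were called. Higher were 7 metallothioneins and lower 22 ribosome biogenesis genes, beside 11.4% and 4.95% of all genes called higher and lower. Ratios of near-identical genes, among metallothioneins, globins, histones and HLA genes, cannot be fully separated, since one probe may pick up RNA from more than one of them. In a ratio from whole cultures, more cells of one kind and more RNA per cell cannot be told apart.

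**Figure D3:**
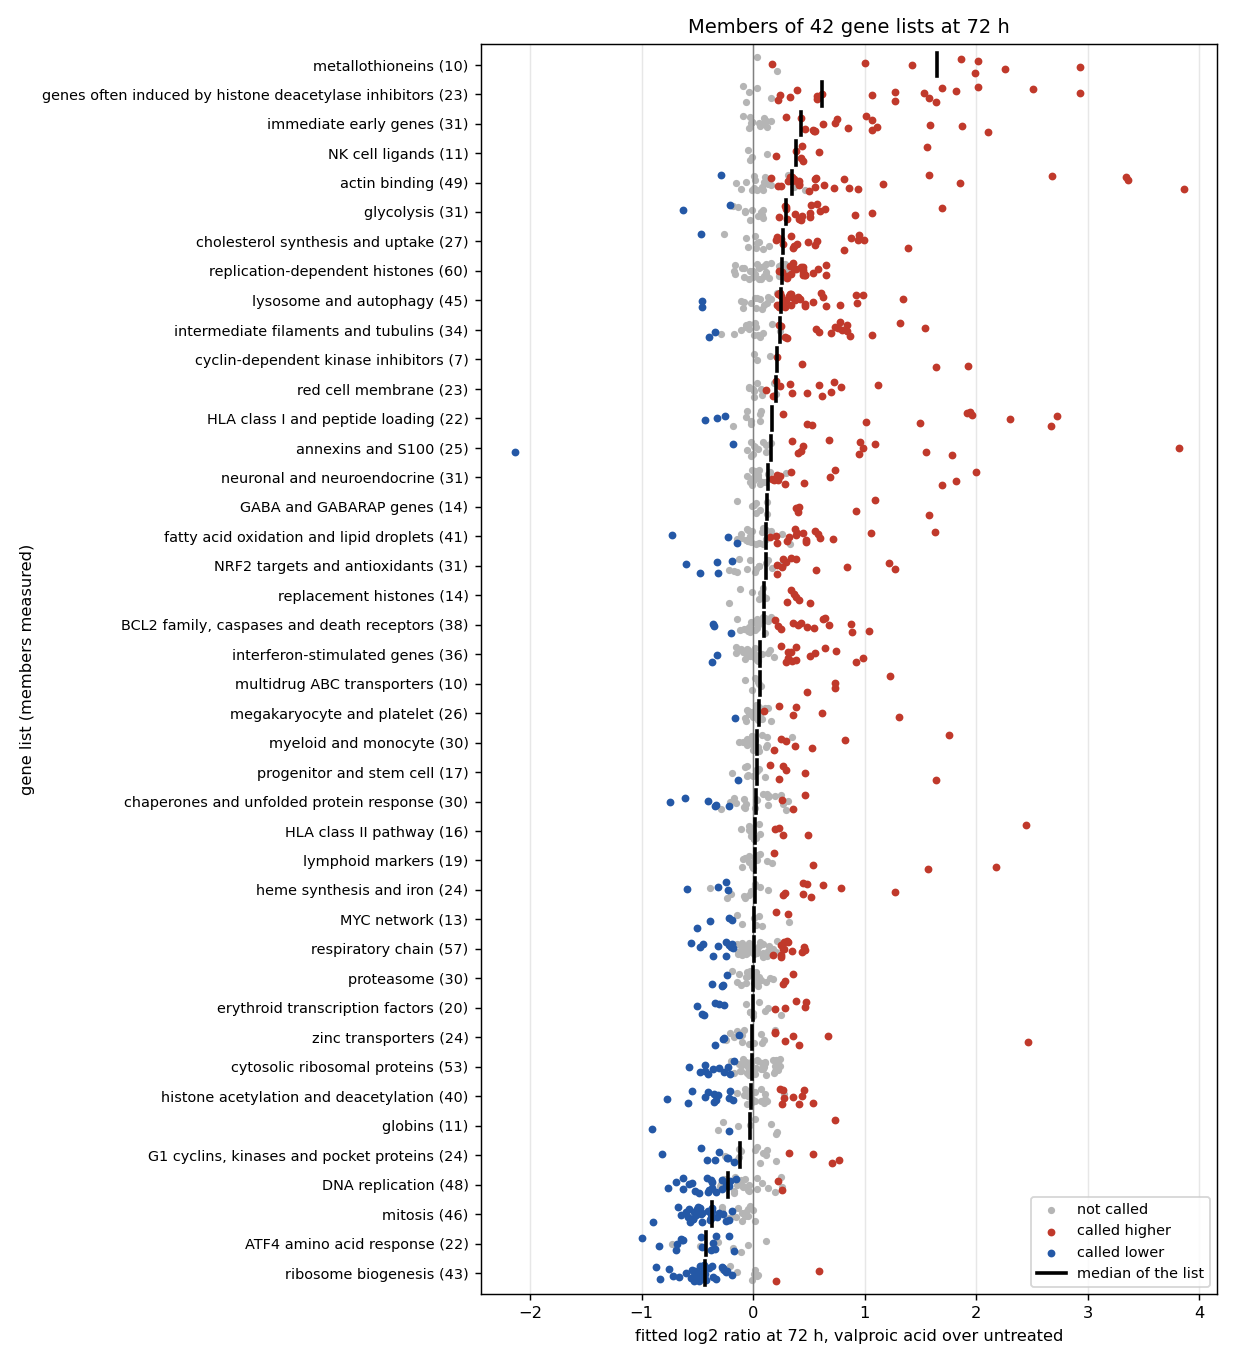
Fitted log2 ratios at 72 h of the measured members of 42 gene lists, ordered by the median of the list (black tick), with the number measured in brackets; red points were called higher, blue points lower and grey points neither. Metallothioneins lie at the top with a median of 1.65 and ribosome biogenesis at the bottom with −0.43.

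Metallothioneins, small cysteine-rich proteins that bind zinc and copper and are switched on by metals through the factor MTF1, had the highest median of all 42 lists. Of 10 measured genes, 8 rose, 0 fell and the median ratio was 1.65 (7 rose without replicate 1). MT2A read 3.65, 2.86 and 2.49 on replicates 1, 2 and 3 and was fitted at 2.93 ± 0.17 (SE; adjusted p = 6.62e-08), or 7.64-fold over untreated. MT1F read 2.40, 2.06 and 2.42 (2.26 ± 0.12) and MT1X read 2.43, 1.88 and 1.87 (2.02 ± 0.12). MT1B (1.99), MT1G (1.87) and MT1H (1.43) were also above 2-fold and MT1E lay just under it (1.0), each with an adjusted p of at most 2.86e-07. The ratio of MT1E averages 2 probes that differed, with 72 h means of 0.025 and 1.99. MT4, of squamous epithelium, was called at only 0.17 (adjusted p = 0.0195), and that call ended without replicate 1 or replicate 3. MT1M and MT3, the brain form, were not called, at 0.21 and 0.029. On no array did MT4, MT1M or MT3 reach the ratio of any of the other 7 genes. A fitted ratio can lie away from the mean of its 3 arrays, because the fit shares 1 dye term over all times.

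Promoters of 300 bases, from 250 before to 50 after the start in RefSeq (GRCh38.p14), were available for 14410 of the 18334 genes. They held the metal response element, the site of MTF1, searched on both strands as TGCACNC or TGCGCNC, in 5 of the 5 metallothionein genes with a promoter and in 35.5% of all. The word TATAAA was in 4 of these 5 and in 8.72% of all. The 4 that were at least 2-fold higher are shown in order of their ratio with each match in capitals; MT2A had 8 matches, MT1X 4, MT1B 3 and MT1H 8. They lie on the plus strand at chr16:56608334-56608633, chr16:56682220-56682519, chr16:56651636-56651935 and chr16:56669564-56669863.
MT2A: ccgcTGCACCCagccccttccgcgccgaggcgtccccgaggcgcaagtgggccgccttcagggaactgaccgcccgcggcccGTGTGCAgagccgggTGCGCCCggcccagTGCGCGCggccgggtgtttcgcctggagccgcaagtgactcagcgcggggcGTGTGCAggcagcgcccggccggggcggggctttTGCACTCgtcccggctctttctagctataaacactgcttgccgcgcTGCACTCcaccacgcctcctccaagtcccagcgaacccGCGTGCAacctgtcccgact
MT1X: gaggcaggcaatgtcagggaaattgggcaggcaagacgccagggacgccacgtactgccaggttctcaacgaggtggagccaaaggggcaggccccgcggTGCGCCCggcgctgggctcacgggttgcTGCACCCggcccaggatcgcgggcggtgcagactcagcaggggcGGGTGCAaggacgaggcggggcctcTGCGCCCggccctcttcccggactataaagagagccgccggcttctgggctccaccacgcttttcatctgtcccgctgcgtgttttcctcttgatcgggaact
MT1B: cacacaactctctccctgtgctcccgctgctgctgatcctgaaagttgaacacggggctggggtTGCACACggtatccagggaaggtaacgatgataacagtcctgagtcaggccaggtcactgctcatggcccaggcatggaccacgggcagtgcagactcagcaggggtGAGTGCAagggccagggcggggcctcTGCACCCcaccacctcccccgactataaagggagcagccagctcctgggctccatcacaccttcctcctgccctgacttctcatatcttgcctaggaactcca
MT1H: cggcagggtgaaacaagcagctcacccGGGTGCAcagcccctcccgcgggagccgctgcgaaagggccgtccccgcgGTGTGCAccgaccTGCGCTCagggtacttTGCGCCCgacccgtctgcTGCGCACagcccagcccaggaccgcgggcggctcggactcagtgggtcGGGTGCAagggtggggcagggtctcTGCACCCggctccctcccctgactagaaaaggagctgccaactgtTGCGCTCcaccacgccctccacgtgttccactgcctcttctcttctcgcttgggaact
The fitted ratios ran 2.93, 2.02, 1.99 and 1.43, so the number of matches and the ratio did not follow one order in these genes. A match is a run of letters and was not tested as a binding site.

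Zinc transporters moved less as a group. Of 24 genes, 7 rose and 4 fell around a median of −0.012 (7 and 4 without replicate 1). The member set apart was SLC30A3, which loads zinc into vesicles, with 3.08, 2.21 and 2.35 on replicates 1, 2 and 3 (2.46 ± 0.17; adjusted p = 2.51e-07). SLC30A1, the zinc exporter of the cell membrane and itself a target of MTF1, was at 0.41 ± 0.077 (adjusted p = 0.001), SLC39A13 at 0.67 and SLC30A10, a manganese exporter, at 0.35. The zinc importer SLC39A4 fell to −0.34 (adjusted p = 2.58e-05).

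Several of the class I chain genes, which show peptides to T cells, were among the large increases. Of 22 class I and peptide loading genes, 11 rose and 3 fell, with a median of 0.17 (10 and 2 without replicate 1). Those that fell were CANX, PSMB10 and ERAP2. HLA-C read 3.27, 2.25 and 2.75 on replicates 1, 2 and 3 (2.73 ± 0.15; adjusted p = 4.16e-08), HLA-B read 3.03, 2.23 and 2.73 (2.67 ± 0.12) and HLA-G read 2.64, 1.99 and 2.36 (2.31 ± 0.11). Replicate 2 was the lowest for each of these. TAP1, which pumps peptides into the endoplasmic reticulum (1.96 ± 0.16), and PSMB9, a subunit of the immunoproteasome (1.95 ± 0.078), were also over 3-fold higher. In the class II pathway 5 of 16 genes rose and 0 fell (median 0.018; 4 rose without replicate 1), and the largest ratio was that of HLA-DPB1. HLA-DPB1, a class II beta chain, read 2.38, 2.44 and 2.53 (2.45 ± 0.058; adjusted p = 5.50e-11), while its partner HLA-DPA1 was at 0.49, HLA-DMA, which helps load peptides, at 0.23 and HLA-DRB1 at 0.20. The 2 probes of HLA-DPA1 differed, with 72 h means of 0.069 and 0.907. The calls of HLA-DRB1 and of RFXANK (0.26), a class II transcription factor subunit, each ended without at least 1 of the 72 h arrays.

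Ligands by which natural killer cells recognise stressed or leukemic cells rose in 7 of 11 cases and fell in 0, with a median of 0.38 (7 rose without replicate 1 too). ULBP2, a ligand of the receptor NKG2D, read 1.65, 1.27 and 1.82 on replicates 1, 2 and 3 (1.56 ± 0.14; adjusted p = 2.20e-06). CD48, a ligand of 2B4 (0.59 ± 0.06), MICA (0.45 ± 0.079) and MICB (0.38 ± 0.068), further NKG2D ligands, had smaller ratios, as had the adhesion molecule CD58 (0.43 ± 0.074) and the DNAM-1 ligands NECTIN2 (0.44 ± 0.07) and PVR (0.20 ± 0.044). ULBP1, ULBP3, RAET1E and NCR3LG1 were not called. Among 36 interferon-stimulated genes 14 rose and 2 fell (10 and 2 without replicate 1, and 7 and 1 without replicate 3), around a median of 0.059. ISG20, an antiviral exonuclease, was at 0.99 ± 0.081 and IFI6, a mitochondrial antiviral protein, at 0.92 ± 0.15 (adjusted p = 1.18e-06 and 4.51e-04). The 2 probes of IFI6 differed, with 72 h means of −0.04 and 2.03. IFI30, a thiol reductase of antigen processing, was at 0.64, and the viral tether gene BST2 was uneven, with 0.38, 0.18 and 1.22.

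Changes among the zinc-dependent deacetylase genes, whose class I members are the known targets of valproic acid, were small. Of 11 such genes HDAC1 to HDAC11, 2 rose and 1 fell, and the other 8 had ratios between −0.14 and 0.12. HDAC1, a class I deacetylase, read 0.29, 0.21 and 0.64 on replicates 1, 2 and 3 (0.41 ± 0.069; adjusted p = 4.23e-04), HDAC5, of class IIa, 0.41, 0.12 and 0.48 (0.36 ± 0.072), and HDAC4, also of class IIa, −0.066, −0.24 and −0.30 (−0.21 ± 0.041). The 4 probes of HDAC4 had 72 h means from −0.90 to 0.29, so its ratio averages probes of opposite sign. In the list of 40 acetylation and deacetylation genes 9 rose and 12 fell (7 and 11 without replicate 1, and 6 and 6 without replicate 3; median −0.019). The acetyltransferase genes KAT2A (GCN5) and KAT8 (MOF) fell, KAT2A with −1.03, −1.19 and −0.39 (−0.77 ± 0.082; adjusted p = 1.02e-05) and KAT8 at −0.59 ± 0.091. SIRT1, a NAD-dependent deacetylase, was lower (−0.55 ± 0.076), whereas SIRT6 (0.45 ± 0.049) and SAP30, a subunit of the SIN3 deacetylase complex (0.54 ± 0.057), were higher. In a list of 23 genes known to respond to histone deacetylase inhibitors, 18 rose and 0 fell, with a median of 0.62 (18 rose without replicate 1). The list was drawn up with earlier results of these data known and is no independent evidence of direction. Beyond the metallothioneins it held DHRS2, a short-chain dehydrogenase (3.05, 1.87 and 2.63; 2.51 ± 0.17), CRIP1, a LIM domain protein (1.82 ± 0.086), and ENO2, the neuronal enolase (1.69 ± 0.10).

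Histone genes themselves differed between the 72 h arrays. Of 60 replication-dependent histone genes, whose messages are made in S phase and end without a poly(A) tail, 20 rose and 0 fell with a median of 0.26. The median of the list was 0.0034, 0.65 and 0.044 on replicates 1, 2 and 3, so that replicate 2 stood far above the others. Without replicate 1, 33 rose, and without replicate 2, 12 rose and 2 fell. The linker histone genes H1-4 and H1-3 read 0.032, 1.41 and 0.46 and 0.19, 1.43 and 0.39 (0.66 ± 0.18 and 0.65 ± 0.16; adjusted p = 0.0125 and 0.00646). H4C11 (0.29, 0.79 and 0.70) and H4C8 (0.26, 0.81 and 0.54), which encode the same histone H4 protein, were higher on every array. Replacement histones, made outside S phase, rose in 6 of 14 cases and fell in 0 (6 without replicate 1; median 0.1). H3-3B, one of the genes for histone H3.3, read 0.40, 0.43 and 0.43 (0.41 ± 0.038; adjusted p = 3.66e-06) and was nearly level over the arrays.

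Of 7 cyclin-dependent kinase inhibitor genes 4 rose and 0 fell, with a median of 0.21 (2 rose without replicate 1). CDKN2D, which encodes p19 and blocks CDK4 and CDK6, read 2.27, 1.74 and 1.84 on replicates 1, 2 and 3 (1.92 ± 0.14; adjusted p = 5.05e-07), and CDKN1A, which encodes p21, read 1.83, 1.60 and 1.56 (1.64 ± 0.11; adjusted p = 2.27e-07). CDKN1C (0.44) and CDKN1B (0.21), which encode p57 and p27, were called with all arrays and not without replicate 1 or replicate 3. CDKN2A, CDKN2B and CDKN3 were not called. Of 24 G1 cyclins, kinases and pocket proteins 4 rose and 8 fell (4 and 4 without replicate 1, and 5 and 3 without replicate 3; median −0.12). The D-type cyclin genes CCND3 (0.77 ± 0.074) and CCND1 (0.70 ± 0.058) and the retinoblastoma gene RB1 (0.54 ± 0.075) were among those that rose. SKP2, which marks p27 for destruction, fell by more than any other member, with −0.75, −0.54 and −1.12 (−0.82 ± 0.10; adjusted p = 4.26e-05).

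Of 48 DNA replication genes 21 fell and 2 rose, with a median of −0.22 (20 and 1 without replicate 1, and 8 and 4 without replicate 3). The origin recognition genes ORC1 (−0.58, −0.71 and −1.03; −0.77 ± 0.094), ORC2 (−0.63 ± 0.05) and ORC3 (−0.58 ± 0.089) fell, as did CDT1, which loads the replicative helicase (−0.69 ± 0.13). Of 46 mitosis genes 31 fell and 0 rose, with a median of −0.37 (30 without replicate 1, and 17, beside 3 that rose, without replicate 3). On replicates 1, 2 and 3 the median of the mitosis list was −0.23, −0.18 and −0.70, so that the dye-swapped array was the lowest. CCNA2, cyclin A2, read −0.78, −0.53 and −1.30 (−0.90 ± 0.11; adjusted p = 2.34e-05). INCENP, of the chromosomal passenger complex (−0.68 ± 0.14), KIF2C, a kinesin that takes microtubules apart (−0.65 ± 0.083), and the kinase genes TTK (−0.60 ± 0.12) and PLK1 (−0.58 ± 0.078) were the next lowest. The word CCAAT, bound by NF-Y, was in the 300-base promoters of 29 of 40 mitosis genes (72.5%) and in 36.4% of all promoters, a list and motif paired after the shares were seen. The 2 lowest mitosis genes with a match are shown with CCAAT, on either strand, in capitals: CCNA2 on the minus strand at chr4:121823834-121824133 and INCENP on the plus strand at chr11:62123761-62124060.
CCNA2: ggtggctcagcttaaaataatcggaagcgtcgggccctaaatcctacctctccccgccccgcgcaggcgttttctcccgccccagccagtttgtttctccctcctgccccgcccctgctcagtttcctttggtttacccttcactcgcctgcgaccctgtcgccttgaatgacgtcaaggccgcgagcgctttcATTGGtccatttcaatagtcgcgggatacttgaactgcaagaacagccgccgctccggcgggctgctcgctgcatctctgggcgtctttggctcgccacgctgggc
INCENP: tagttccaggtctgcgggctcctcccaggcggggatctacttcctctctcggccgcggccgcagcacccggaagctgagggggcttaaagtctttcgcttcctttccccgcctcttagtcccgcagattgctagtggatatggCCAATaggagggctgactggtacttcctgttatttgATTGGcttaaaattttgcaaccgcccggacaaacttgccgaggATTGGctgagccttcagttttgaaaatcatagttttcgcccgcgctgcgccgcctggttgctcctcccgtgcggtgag
CCNA2 held 1 match and INCENP 3.

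The machinery that builds ribosomes was lower in most of its genes. Of 43 ribosome biogenesis genes 33 fell and 2 rose, with a median of −0.43 (24 and 3 without replicate 1, and 21 lower without replicate 3). The median of the list was −0.54, −0.27 and −0.36 on replicates 1, 2 and 3. NOB1, an endonuclease that matures the small subunit RNA, read −0.83, −1.15 and −0.77 (−0.88 ± 0.059; adjusted p = 2.17e-07). LYAR (−0.84 ± 0.097), MYBBP1A (−0.76 ± 0.099), the nucleolar chaperone NPM1 (−0.72 ± 0.055) and the helicase DDX21 (−0.66 ± 0.11), proteins of the nucleolus, were lower on 3 of 3 arrays. The 6 probes of NPM1 had 72 h means from −1.01 to −0.039. Of 53 cytosolic ribosomal protein genes 11 fell and 0 rose, and their median was −0.016 (12 and 2 without replicate 1). RPS12 (−0.57) and RPL12 (−0.48) were the lowest of these. In the network of MYC, the transcription factor that drives ribosome production, 4 of 13 genes fell and 2 rose (4 and 2 without replicate 1). MYC read −0.44, −0.61 and −0.49 (−0.51 ± 0.11; adjusted p = 0.00341), MIR17HG, the host transcript of a microRNA cluster and a MYC target, −0.70, −0.16 and −0.39 (−0.39 ± 0.11; not called without replicate 1 or replicate 3), and the MYC partner MAX 0.13, 0.29 and 0.47 (0.32 ± 0.048). MGA (−0.22), MXD1 (−0.19) and MNT (0.20), other partners of MAX, were called too, and the remaining 7 genes were not. The word CACGTG, the E-box bound by MYC and MAX, was in the promoters of 16 of 37 ribosome biogenesis genes (43.2%), against 9.08% of all promoters, 13.9% of the 2062 of genes called lower and 8.27% of the 3240 of genes called higher. Among the 32 ribosome biogenesis genes called at 72 h with a promoter it was in 13 (40.6%), no more often than in the list as a whole. The 2 lowest with a match are shown with it in capitals: MYBBP1A on the minus strand at chr17:4555335-4555634 and UTP4, a small subunit processome protein chosen by this rule (−0.54 on the log2 scale), on the plus strand at chr16:69132399-69132698.
MYBBP1A: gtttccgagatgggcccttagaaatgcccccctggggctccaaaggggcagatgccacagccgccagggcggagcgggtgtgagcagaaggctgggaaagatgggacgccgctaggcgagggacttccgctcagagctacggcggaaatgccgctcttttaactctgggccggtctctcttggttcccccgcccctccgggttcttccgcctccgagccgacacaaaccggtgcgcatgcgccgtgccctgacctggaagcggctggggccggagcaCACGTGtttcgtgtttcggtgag
UTP4: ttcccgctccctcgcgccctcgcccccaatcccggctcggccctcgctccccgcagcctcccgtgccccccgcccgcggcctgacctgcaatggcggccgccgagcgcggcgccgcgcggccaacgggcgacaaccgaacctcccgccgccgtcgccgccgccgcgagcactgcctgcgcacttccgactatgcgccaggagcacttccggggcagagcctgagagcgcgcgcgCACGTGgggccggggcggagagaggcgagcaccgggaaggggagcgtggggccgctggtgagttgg
Each held a single CACGTG, which reads the same on both strands.

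The erythroid genes of K562 cells did not move together. In the globin list, 11 genes that include the globin chaperone AHSP, 1 rose and 2 fell, and the median was −0.029 (2 and 1 without replicate 1, and 1 and 4 without replicate 2). HBD, the delta chain of adult hemoglobin A2, read 0.085, 1.03 and 1.02 on replicates 1, 2 and 3 (0.73 ± 0.14; adjusted p = 0.00126), high on replicates 2 and 3 and near 0 on replicate 1. HBZ, the embryonic zeta chain, read −0.12, −0.47 and −1.92 (−0.90 ± 0.27; adjusted p = 0.0198), and its call ended without replicate 3. AHSP was at −0.22 and its call ended without replicate 1 or replicate 3. The fetal gamma gene HBG1 (−0.12, 0.19 and 0.40; 0.22), the embryonic epsilon gene HBE1 (−0.58, −0.061 and 0.11; −0.14) and the adult beta gene HBB (−0.79, 0.17 and −0.42; −0.32) were not called, with adjusted p of 0.0534, 0.337 and 0.133. Their arrays spread over 0.5 or more. HBG1 passed the test at 0.29 without replicate 1 (adjusted p = 0.0302), and HBB at −0.61 without replicate 2 (adjusted p = 0.00161). The remaining 5 genes were not called. Of these the alpha genes HBA1 and HBA2 read −0.31, 0.97 and 0.0096 and −0.41, 0.96 and −0.00084, high on replicate 2 only, and the second fetal gene HBG2 read −0.79, 0.043 and −0.26. HBM and HBQ1 read −0.08, 0.07 and 0.028 and −0.23, −0.093 and 0.09.

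Of 24 heme and iron genes 9 rose and 4 fell (9 and 3 without replicate 1; median 0.013). BLVRA, biliverdin reductase, which acts in the breakdown of heme, read 1.5, 0.91 and 1.35 (1.27 ± 0.11; adjusted p = 2.07e-06), and FLVCR1, which exports heme, 0.32, 1.07 and 0.88 (0.78 ± 0.11). TFRC, the transferrin receptor that brings in iron, read 0.38, 0.72 and 0.76 (0.62 ± 0.10; adjusted p = 4.04e-04). CPOX, an enzyme of heme synthesis, was higher (0.52), while SLC25A38, which carries glycine into mitochondria for the first step of that synthesis, fell to −0.60 (adjusted p = 2.03e-06). Among red cell membrane and blood group genes, 13 of 23 rose and 0 fell, with a median of 0.2 (11 without replicate 1, and 9 without replicate 3). The Rh genes RHCE (0.73, 1.41 and 1.19; 1.12 ± 0.10), RHD (0.69 ± 0.08) and RHAG (0.62 ± 0.057), the Kell gene KEL (0.73 ± 0.12) and CD59, which shields cells from complement (0.68, 0.88 and 0.81; 0.79 ± 0.042), were higher on 3 of 3 arrays. Near-identical RHCE and RHD may share signal. Of 20 erythroid transcription factors 5 rose and 6 fell (4 and 6 without replicate 1). KLF1, the erythroid Krüppel-like factor, read −0.91, −0.62 and −0.25 (−0.50 ± 0.089; adjusted p = 6.50e-04), and LMO2 (−0.44), a bridging subunit of the GATA1 complex, and STAT5A (−0.46; not called without replicate 3), a signal transducer of the erythropoietin receptor, were also lower. NFE2 (0.47 ± 0.083) and MYB (0.46 ± 0.096), which keeps progenitors dividing, were higher.

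GATA sites, searched as AGATAA or TGATAA on both strands, were in the promoters of 8 of 19 red cell membrane genes (42.1%) and in 11.5% of all promoters, again paired after the shares were seen. The 2 highest with a match are shown with it in capitals, RHCE at chr1:25420886-25421185 and KEL at chr7:142962314-142962613, both on the minus strand.
RHCE: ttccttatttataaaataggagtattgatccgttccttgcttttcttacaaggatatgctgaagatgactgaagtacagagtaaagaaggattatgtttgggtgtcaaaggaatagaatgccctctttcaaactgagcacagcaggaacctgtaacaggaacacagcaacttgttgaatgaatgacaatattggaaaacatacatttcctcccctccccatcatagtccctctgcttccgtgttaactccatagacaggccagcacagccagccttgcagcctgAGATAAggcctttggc
KEL: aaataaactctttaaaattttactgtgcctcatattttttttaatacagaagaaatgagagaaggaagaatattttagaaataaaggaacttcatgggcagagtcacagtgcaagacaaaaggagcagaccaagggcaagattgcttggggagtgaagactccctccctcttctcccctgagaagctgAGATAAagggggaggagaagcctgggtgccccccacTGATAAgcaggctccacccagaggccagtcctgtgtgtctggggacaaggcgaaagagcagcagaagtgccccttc
RHCE held 1 match and KEL 2. Over all genes at least 2-fold higher with a promoter, 303 in number, the shares were 13.9% for GATA, 5.94% for AP-1 (TGACTCA or TGAGTCA; 3.58% of all promoters), 36.6% for the metal response element, 10.6% for TATAAA, 33.7% for CCAAT and 5.94% for CACGTG. Their median GC content was 65%, against 63.3% for all promoters, and the median number of CpG was 23 in both. At least 2-fold lower genes had only 9 promoters, of which 3 held CACGTG.

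Markers of other blood lineages gave a few large increases inside lists that moved little. Of 30 myeloid and monocyte genes 7 rose and 0 fell (6 and 1 without replicate 1, and 4 and 0 without replicate 3; median 0.036). LYZ, the lysozyme of granulocytes and monocytes, read 1.94, 1.58 and 1.73 (1.76 ± 0.077; adjusted p = 7.21e-09) and ITGAM, the integrin CD11b, 1.32, 0.51 and 0.78 (0.82 ± 0.11). Of 26 megakaryocyte and platelet genes 6 rose and 1 fell (6 and 1 without replicate 1; median 0.048), led by the tetraspanin CD9 (1.52, 0.88 and 1.40; 1.31 ± 0.11) and CD63 (0.61 ± 0.099). Of 19 lymphoid markers 4 rose and 0 fell (4 without replicate 1; median 0.018). CCR7, the homing receptor of T cells and dendritic cells, read 1.80, 2.44 and 2.32 (2.18 ± 0.12; adjusted p = 3.39e-08) and CD3D, a chain of the T cell receptor complex, 1.40, 2.08 and 1.38 (1.57 ± 0.12). CD3G, another chain of that complex, was at 0.54. CD3E, also of that complex, was not called, with −0.0087, 0.035 and −0.25 (−0.093 ± 0.058). Of 17 progenitor and stem cell genes 6 rose and 1 fell (5 and 1 without replicate 1), and KIT, the receptor of stem cell factor, read 2.13, 0.98 and 1.87 (1.64 ± 0.16; adjusted p = 4.98e-06). The myeloid, megakaryocyte and lymphoid lists held 23.3%, 23.1% and 21.1% of members called higher, close to the 22.1% of all genes. As only ratios were deposited, the level of these markers, and thus which cells were present, could not be read.

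Immediate early genes, which answer stimuli within minutes, were raised at 72 h in over 1 in 2 cases. Of 31 such genes 17 rose and 0 fell, with a median of 0.43 (13 without replicate 1). FOS, a subunit of the factor AP-1, read 2.44, 2.24 and 1.75 on replicates 1, 2 and 3 (2.11 ± 0.091; adjusted p = 6.04e-09), the zinc finger factor EGR1 2.26, 1.66 and 1.69 (1.87 ± 0.16) and the stress response gene IER3 1.70, 1.51 and 1.49 (1.59 ± 0.13). ZFP36, which speeds the decay of AU-rich messages (1.11 ± 0.11), and JUND, another AP-1 subunit (1.37, 1.32 and 0.78; 1.07 ± 0.051), were also over 2-fold higher.

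Cytoskeletal genes supplied several of the largest increases. Of 49 actin-binding genes 29 rose and 1 fell, with a median of 0.35 (24 and 1 without replicate 1). Besides TMSB15A, AIF1L and MARCKS they included CSRP2, a LIM domain protein (3.11, 2.72 and 2.44; 2.68 ± 0.14), and the thymosin gene TMSB10 (2.17, 1.53 and 1.79; 1.85 ± 0.094). Of 34 intermediate filament and tubulin genes 17 rose and 2 fell (16 and 1 without replicate 1; median 0.24). The tubulin genes TUBB2B (2.34, 1.11 and 1.37; 1.54 ± 0.17) and TUBB3 (1.07 ± 0.11) and the filament genes NES, nestin (1.32 ± 0.099), and INA, internexin (0.84 ± 0.054), are best known from neural cells. The 2 probes of TUBB2B differed, with 72 h means of 0.75 and 2.47. Of 25 annexin and S100 genes 12 rose and 2 fell (14 and 2 without replicate 1; median 0.16). S100A4 read 1.33, 2.22 and 1.71 (1.78 ± 0.12; adjusted p = 2.72e-07), S100A13 was at 1.10 ± 0.10, and ANXA3 was uneven with 2.44, 0.63 and 1.57 (1.55 ± 0.23). S100A10 and S100P, the highest and lowest members, were among the 14 highest and 14 lowest genes described above.

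Among neuronal and neuroendocrine genes, 13 of 31 rose and 0 fell (12 without replicate 1; median 0.13). SCG3, a granin of secretory granules, read 2.25, 1.96 and 1.82 (1.99 ± 0.071; adjusted p = 1.56e-09) and UCHL1, a neuronal ubiquitin hydrolase, 1.81, 1.69 and 1.98 (1.82 ± 0.072; adjusted p = 3.28e-09). The 2 probes of SCG3 differed, with 72 h means of 0.79 and 3.24. APBB1, an adaptor that binds the amyloid precursor protein, was at 0.73 ± 0.073. Valproic acid is also known to affect GABA turnover in brain, and a list of 14 genes was looked at that holds GABA enzymes, transporters, a receptor subunit and GABARAP genes, which act in autophagy. Of these 6 rose and 0 fell (6 and 1 without replicate 1; median 0.13). They were GAD1, ABAT, SLC32A1, ALDH9A1 (0.41), an aldehyde dehydrogenase that can form GABA, GLUL (0.38), glutamine synthetase, and GABARAP (0.40). GAD1, which makes GABA, read 1.44, 1.31 and 1.94 (1.58 ± 0.095; adjusted p = 7.96e-08) and ABAT, the transaminase that breaks it down, 0.87, 0.80 and 1.13 (0.92 ± 0.092; adjusted p = 6.14e-06). The 3 probes of GAD1 had 72 h means from 0.57 to 2.13. SLC32A1, the vesicular GABA transporter, read 0.44, 0.58 and 2.09, with replicate 3 far above the others (1.09 ± 0.21).

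Lipid genes were higher more often than lower. In the list of fatty acid oxidation and lipid droplets, 17 of 41 genes rose and 3 fell (17 and 3 without replicate 1; median 0.11). ANGPTL4, a lipase inhibitor induced by fatty acids through PPARs, read 1.55, 1.66 and 1.70 (1.63 ± 0.20; adjusted p = 3.67e-05), and CPT1C (1.05 ± 0.12), CPT2 (0.71 ± 0.12) and PDK4, which holds back the pyruvate dehydrogenase complex (0.60 ± 0.068), were higher. The 2 probes of PDK4 differed, with 72 h means of 0.092 and 1.12. ECI1, an isomerase of beta-oxidation, fell, with −0.43, −1.21 and −0.62 (−0.73 ± 0.099; adjusted p = 8.06e-05). Of 27 genes of cholesterol synthesis and uptake 17 rose and 1 fell, with a median of 0.27 (17 and 2 without replicate 1). NPC2, which moves cholesterol out of lysosomes, read 1.87, 1.0 and 1.44 (1.39 ± 0.13; adjusted p = 3.13e-06). STARD4 (1.0 ± 0.074), INSIG1 (0.95 ± 0.089), TM7SF2 (0.94 ± 0.067) and SQLE (0.87 ± 0.10), targets of the sterol-sensing factor SREBP2, were higher on 3 of 3 arrays.

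Of 31 glycolysis genes 18 rose and 2 fell, with a median of 0.29 (16 and 2 without replicate 1). SLC2A1, the glucose transporter GLUT1, read 1.18, 0.92 and 1.15 (1.06 ± 0.11; adjusted p = 8.10e-06), the kinase gene PDK2 was at 0.91 ± 0.074 and the phosphofructokinase gene PFKP at 0.64 ± 0.07. PKLR, the pyruvate kinase of liver and red cells, fell, with −0.92, −0.36 and −0.65 (−0.63 ± 0.098; adjusted p = 2.27e-04). Of 57 respiratory chain genes 13 rose and 11 fell (10 and 7 without replicate 1, and 7 and 7 without replicate 3; median 0.0081). NDUFC1 (−0.56 ± 0.056) and CYC1 (−0.48 ± 0.073) were lower and NDUFA2 (0.46 ± 0.065) and NDUFB6 (0.46 ± 0.048) higher, subunits of complexes I and III.

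Genes of the amino acid response driven by ATF4 fell in 15 of 22 cases and rose in 0, with a median of −0.42 (18 without replicate 1, 11 without replicate 2 and 9 without replicate 3). The list's median was −0.048, −0.71 and −0.30 on replicates 1, 2 and 3. TRIB3, a pseudokinase, read −0.75, −1.52 and −0.92 (−1.0 ± 0.12; adjusted p = 2.55e-05) and the amino acid transporter SLC7A5 −0.78, −0.75 and −0.52 (−0.65 ± 0.043; adjusted p = 1.94e-07). ASNS, asparagine synthetase, was lowest on replicate 1, where the median of the list was highest, with −1.19, −0.71 and −0.23 (−0.68 ± 0.12). Of 30 chaperone and unfolded protein response genes 3 rose and 6 fell (2 and 6 without replicate 1, 8 and 6 without replicate 2, and 0 and 4 without replicate 3; median 0.023), and XBP1 (−0.63, −1.02 and −0.71; −0.74 ± 0.078), a factor of that response, and HSPA9 (−0.62 ± 0.074), a mitochondrial chaperone, were lower. Of 31 NRF2 targets and antioxidants 11 rose and 5 fell (12 and 5 without replicate 1, 12 and 8 without replicate 2, and 7 and 4 without replicate 3; median 0.11), with GLRX, glutaredoxin (1.46, 1.16 and 1.39; 1.27 ± 0.14), and MGST3, a glutathione transferase (1.23, 1.10 and 1.28; 1.22 ± 0.073), above 2-fold. KEAP1, which holds NRF2 in check, fell to −0.60 ± 0.11 (adjusted p = 5.89e-04).

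In the lysosome and autophagy list, 28 of 45 genes rose and 2 fell, with a median of 0.25 (22 and 2 without replicate 1, and 17 and 2 without replicate 3). WIPI1, which binds forming autophagosomes, read 2.10, 0.51 and 1.43 (1.35 ± 0.21; adjusted p = 2.77e-04). CTSB, cathepsin B (0.98 ± 0.10), the proton pump subunit genes ATP6V0D1 (0.92 ± 0.082) and ATP6V0A1 (0.78 ± 0.073), and TFEB, a transcription factor for lysosomal genes (0.93 ± 0.081), were also higher. Of 30 proteasome genes 3 rose and 4 fell (3 and 3 without replicate 1; median 0.00037). Among 38 cell death genes (BCL2 family, caspases, death receptors) 14 rose and 3 fell (13 and 3 without replicate 1; median 0.094). BNIP3L, a mitochondrial receptor for autophagy (1.59, 0.49 and 1.08; 1.04 ± 0.17), and the BH3-only genes BAD (0.87 ± 0.11), BMF (1.01, 0.029 and 1.40; 0.89 ± 0.15) and HRK (0.64 ± 0.088) were higher, as was CASP9, the caspase of the apoptosome (0.68 ± 0.095). The 2 probes of HRK differed, with 72 h means of 0.053 and 1.24. Of 10 multidrug transporter genes 4 rose and 0 fell (4 without replicate 1; median 0.056). These were ABCG2 (1.42, 0.75 and 1.44; 1.23 ± 0.099), MVP, the major vault protein (0.74 ± 0.096), ABCB6 (0.73 ± 0.069) and ABCB1, P-glycoprotein (0.43, 0.44 and 0.59; 0.48 ± 0.044).

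Set against the 48 h arrays, the 72 h comparison gave no called gene. In limma 0 genes were higher and 0 lower at 72 h than at 48 h (0% of those tested), with 2377 genes (12.96%) at an unadjusted p under 0.05 and a lowest adjusted p of 0.068. The lack of calls does not show that the 2 times were alike. Without the array labelled 72 h replicate 1, 416 genes were higher (2.27%) and 689 lower (3.76%) at 72 h. Without 72 h replicate 2, and likewise without 72 h replicate 3, 0 were higher and 0 lower. Replicate 1 was singled out for its likeness to 48 h, so leaving it out favours a difference from 48 h. The calls and adjusted p values without it are therefore no independent test of such a difference. With replicate 1 left out at all times, so that its thawing was missing from both sides and 10 arrays stayed in the fit, 25 genes were higher (0.136%) and 65 lower (0.355%), together 0.491%. All 1105 genes called without the 72 h array alone (6.03%) kept the sign of their difference in that fit, but only 88 of them were called in it. The 2 fits share both 72 h arrays and replicates 2 and 3 of 48 h, so a kept sign was nearly fixed in advance. The median SE of the difference was 0.0911 without the 72 h array alone and 0.0903 without replicate 1 at all times. Of the 1105, replicate 1 of 72 h lay within the range of the 48 h arrays for 598, replicate 2 for 15 and replicate 3 for 45. The last 2 counts are low by construction, as those arrays gave the calls. The count of 598 is favoured by construction too, since these genes were called only with 72 h replicate 1 left out. Replicate 1 lay on the same side of the 48 h mean as the fitted difference for 778 of the 1105. Neither 598 nor 778 is set beside a share over all genes, so nothing is read from them about the 1105. Without 72 h replicate 1, 548 of these genes were called with no dye term and 335 with array weights. The cause of the likeness of replicate 1 to 48 h was not tested, and these differences rest on 2 arrays of 72 h.

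Genes are named here by the size of the difference without 72 h replicate 1, after the values were seen. Of 10 named genes that were higher and 10 that were lower, CCR7, HBD, PAEP, S100P and FN1 were also called without replicate 1 at all times, and the other 15 were not. Replication-dependent histones were higher at 72 h in 28 of 60 cases and lower in 3, with a median difference of 0.53, while without replicate 1 at all times 0 were called and the median difference was 0.52. At 72 h 20 were higher and 0 lower than in untreated cells, whereas at 48 h 4 were higher and 14 lower. H2AC25 read −0.27, 0.96 and −0.12 at 72 h and −0.86, −1.05 and −0.67 at 48 h, a difference of 1.30 ± 0.22 (SE; adjusted p = 0.00805 without 72 h replicate 1, and 0.0998 without replicate 1 at all times), and H2AC7 read −0.086, 1.15 and −0.15 at 72 h and −0.31, −0.87 and −0.76 at 48 h (1.21 ± 0.24; adjusted p = 0.0146 and 0.0964). Replicate 2 carried most of the size for both. HBD read 0.085, 1.03 and 1.02 at 72 h and −0.44, −0.47 and −0.13 at 48 h (1.37 ± 0.12; adjusted p = 1.76e-04 and 0.0246). In the globin list 5 of 11 genes were higher at 72 h and 0 lower, and 1 was higher without replicate 1 at all times. CCR7 (1.19 ± 0.13; adjusted p = 0.00133 and 0.00787) and PAEP, glycodelin (1.08, 1.47 and 1.62 at 72 h and 0.55, 0.50 and 0.71 at 48 h; 0.95 ± 0.08), were above 48 h on every 72 h array, replicate 1 included.

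On the lower side, S100P lay below the 48 h arrays on replicates 2 and 3 only, with −0.37, −3.32 and −2.65 at 72 h and −0.66, −0.64 and −0.43 at 48 h (−2.42 ± 0.15; adjusted p = 3.58e-05 without 72 h replicate 1, and 0.00787 without replicate 1 at all times). UNC5B, a netrin receptor, read 1.53, −1.79 and 0.043 at 72 h and 1.55, 1.41 and 1.33 at 48 h (−2.35 ± 0.36; adjusted p = 0.00497 and 0.0777), ARG2, the mitochondrial arginase, 0.88, −1.78 and −0.50 and 0.87, 0.80 and 0.76 (−1.97 ± 0.25; adjusted p = 0.0021 and 0.0633), and FN1, fibronectin, 0.85, −1.23 and −0.31 and 1.23, 0.96 and 1.0 (−1.88 ± 0.18; adjusted p = 4.44e-04 and 0.0393). In each of these replicate 1 was close to 48 h, replicate 2 was the lowest and replicate 3 lay between. CYP2F1, ACSM3, SMIM3, AFP and LGALS3 had differences between −1.73 and −1.57 and the same order of arrays. CD24, a surface glycoprotein, was still raised at 72 h, with 3.13, 1.28 and 2.15, against 3.22, 3.62 and 2.92 at 48 h (−1.53 ± 0.24). Among the lists, ATF4 genes were lower than at 48 h in 7 of 22 cases, fatty acid oxidation and droplet genes in 8 of 41 and actin-binding genes in 8 of 49. Without replicate 1 at all times these counts were 1, 2 and 2.

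**Figure D4:**
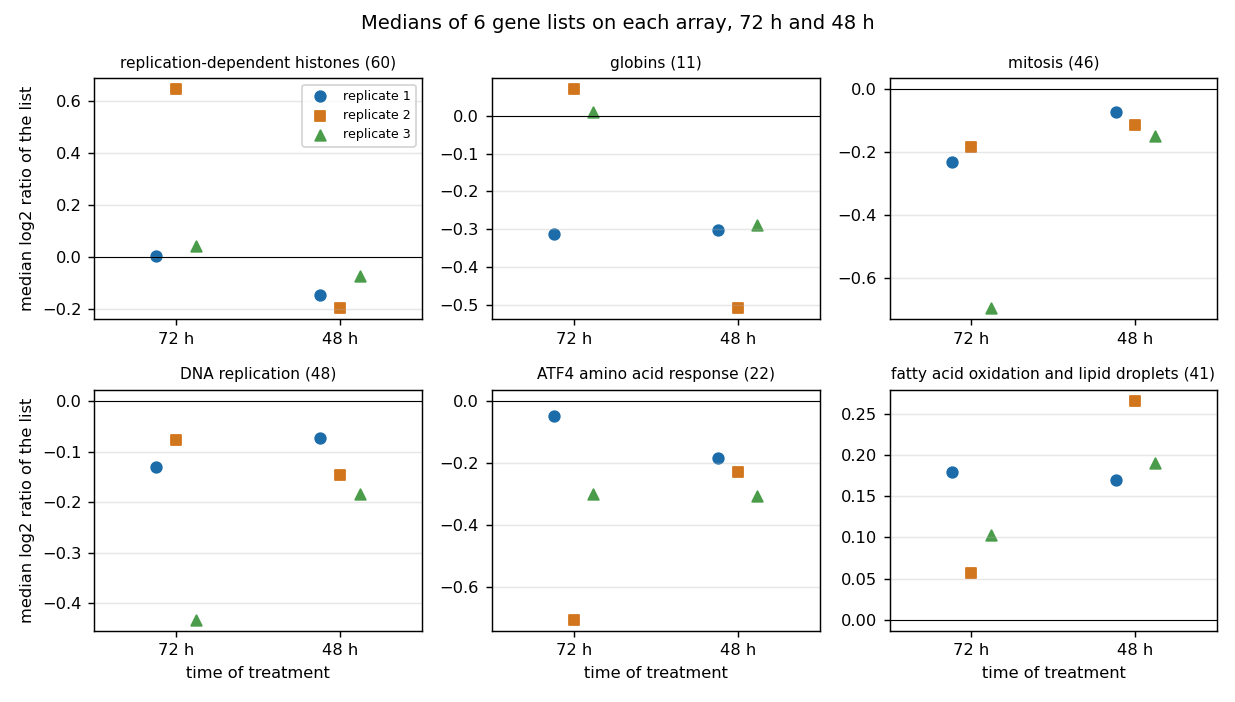
Median log2 ratio of 6 gene lists on each array at 72 h (left in each panel) and 48 h (right), with replicates by colour and shape and the number of genes in brackets; vertical scales differ between panels. For histones replicate 2 of 72 h lies at 0.65 and replicate 1 at 0.0034, and for mitosis replicate 3 of 72 h lies at −0.70.

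With the 3 arrays kept, the calls of 72 h and 48 h shared many genes: 3258 were higher at both, which is 80.25% of the genes higher at 72 h and 76.41% of those at 48 h. Lower at both were 1662, or 66.51% and 62.06%. Opposite calls were rare, with 7 genes higher at 72 h and lower at 48 h and 3 the other way. At 48 h 4264 genes were higher (23.3%) and 2678 lower (14.6%). The arrays of the 2 times shared thawings, dye orientation and each gene's estimate of spread.

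Against 6 h, an early time with a broad response (3485 genes higher, 19%, and 1771 lower, 9.66%), 1668 genes were higher at 72 h (9.1%) and 1407 lower (7.67%). These counts were 1039 and 733 without 72 h replicate 3, and 399 and 149 without replicate 3 at all times. Higher at 72 h but lower at 6 h were 81 genes, and lower at 72 h but higher at 6 h were 128. CRYM had the largest positive difference among the called genes, with 4.02, 3.47 and 4.77 at 72 h and 0.82, 0.80 and 0.43 at 6 h (difference 3.40 ± 0.28, SE; adjusted p = 1.21e-05). CCL2, a chemokine for monocytes, changed sign, with 1.88, 2.32 and 2.01 at 72 h and −0.54, −0.66 and −0.53 at 6 h (difference 2.65 ± 0.10; adjusted p = 2.64e-08). The arrays of the 2 times did not overlap for either gene. SCGN, secretagogin, a calcium sensor of endocrine cells, read 2.57, 2.27 and 3.20 at 72 h and 0.26, 0.16 and −0.044 at 6 h. TFRC likewise changed sign, with 0.38, 0.72 and 0.76 at 72 h and −0.58, −0.48 and −0.59 at 6 h (difference 1.17 ± 0.14; adjusted p = 2.07e-04).

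Mitosis genes were lower at 72 h than at 6 h in 24 of 46 cases and higher in 0, and DNA replication genes in 13 of 48 and 0. Of the 24 G1 genes 3 were lower and 4 higher. ATF4 genes were lower in 12 of 22 cases and higher in 1. CTH, cystathionine gamma-lyase, of that list, read 0.021, −1.64 and −0.94 at 72 h and 0.83, 0.49 and 0.62 at 6 h (difference −1.5 ± 0.29; adjusted p = 0.00396), and GFPT1, the first enzyme of the hexosamine pathway, −0.10, −1.44 and −1.17 and 0.33, 0.31 and 0.40 (difference −1.25 ± 0.24; adjusted p = 0.00409). Both calls ended without replicate 3 at all times. Histones were higher at 72 h than at 6 h in 17 of 60 cases and lower in 0, cholesterol genes higher in 13 of 27 and lower in 1, and metallothioneins higher in 8 of 10 and lower in 0. Ribosome biogenesis genes, already lower at 6 h (34 of 43, median −0.42), were higher at 72 h than at 6 h in 9 cases and lower in 5. List counts against 6 h are given from all arrays only, with none for an array left out. At 72 h the mitosis median was lowest on replicate 3 (−0.70) and the histone median highest on replicate 2 (0.65).

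**Figure D5:**
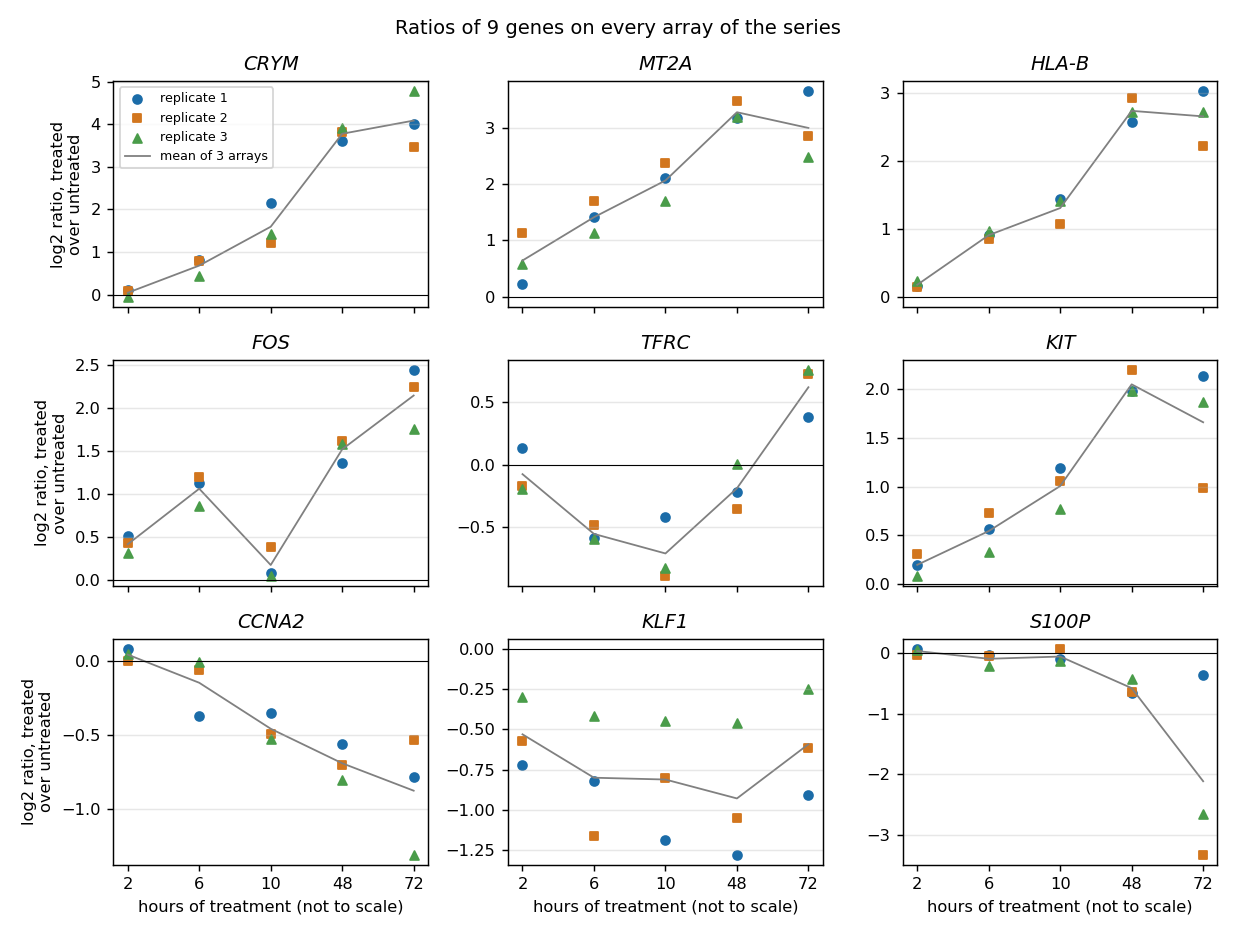
Log2 ratios of treated over untreated cells for 9 genes on all 15 arrays at 2, 6, 10, 48 and 72 h (time axis not to scale; vertical scales differ), with replicates by colour and shape and a grey line through the mean of the 3 arrays of each time. TFRC lies below 0 on all 6 h arrays (−0.59 to −0.48) and above 0 on all 72 h arrays (0.38 to 0.76), and S100P falls below −2.6 only on 72 h replicates 2 and 3.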

How the data were processed

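RNA of K562 cells treated with 1 mM valproic acid and of untreated cells was measured on 2-colour arrays at 5 times, with 3 arrays a time. The authors deposited 1 log ratio of treated over untreated per probe and array, read here as log2 since the base is not given in the sources used here, and limma is named without a version in the submitters' processing notes. Since only ratios were given, no signal level, background or dim probe could be checked. Precision rests on having 3 arrays at 72 h.

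Of 45220 probes, 31332 had 1 gene symbol, 93 several and 13795 none listed; probes were averaged to 18334 genes, 7759 of them with more than 1 probe. Ratios were fitted with limma 3.58.1 in R 4.3.3 (lmFit, eBayes) on 15 arrays with a mean per time and a dye term, which also takes up what is peculiar to replicate 3, leaving 9 residual degrees of freedom. Genes with a Benjamini-Hochberg adjusted p under 0.05 over all genes were called. The median SE at 72 h was 0.0602. Each SE rests on the mean of a gene's probes on each array and leaves out the spread between probes, which differed for some genes. Probe means are given above for only some of these genes. Tables and figures were made with Python 3.11.15, pandas 2.3.3, numpy 2.4.6 and matplotlib 3.10.9, and the fit was tested on simulated data. Per the labels, replicate numbers mark thawings and so pair arrays; deviations of arrays with the same number correlated at a mean of 0.18, 0.15 and 0.52 for replicates 1, 2 and 3.

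Named genes were the 14 highest and lowest at 72 h, up to 6 per direction for 72 h minus 6 h, up to 5 called members per list with lists of at most 13 genes accounted for, and some erythroid, cell cycle and deacetylase genes. The 10 per direction for 72 h minus 48 h were named without 72 h replicate 1. The comparison, the lists and the rules were chosen with earlier results of these data known. Alternatives were the 72 h arrays alone, array weights, centring, scaling, the median of probes, no dye term, replicate blocks, robust fitting and leaving out arrays.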

Additional observations from a re-analysis of the deposited data

Results flagged for a closer look

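The response at 72 h was set against that at 6 h by a test of the difference itself (limma contrast, adjusted p under 0.05). The 17 genes given here were chosen by the size of that difference or for their known role. They are listed because they passed the test. Each is given as the 72 h minus the 6 h log2 ratio ± SE.

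Higher at 72 h were CRYM by 3.40 ± 0.28, TMSB15A by 2.74 ± 0.14, CCL2 by 2.65 ± 0.10, SCGN by 2.56 ± 0.24, PLAAT3 by 2.49 ± 0.13 and IGFBP2 by 2.47 ± 0.19. Their adjusted p was at most 2.87e-05. Among genes named for their role, the difference was 1.17 ± 0.14 for TFRC, 1.12 ± 0.22 for KIT, 0.64 ± 0.13 for MYB, 0.55 ± 0.16 for CDKN1A and 0.27 ± 0.074 for GATA1, an erythroid transcription factor. Others named for their role did not pass, among them KLF1, GATA2, HBG1, HBE1, MYC, BCL2, CEBPA and SPI1. Their differences lay between −0.22 and 0.21, with an adjusted p of at least 0.248 in the same contrast. GATA1 read −0.19, −0.23 and 0.19 on replicates 1, 2 and 3 of 72 h and −0.40, −0.64 and −0.0099 on those of 6 h (adjusted p of the difference = 0.0244).

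Lower at 72 h were S100P with −2.02 ± 0.51, ARG2 with −1.55 ± 0.44, CTH with −1.5 ± 0.29, PHLDB3 with −1.46 ± 0.19, SNHG27 with −1.25 ± 0.25 and GFPT1 with −1.25 ± 0.24, and their adjusted p was at most 0.0297. The calls of S100P and ARG2 ended without 72 h replicate 3, where the differences were −1.75 and −1.57, and without replicate 2 or replicate 3 at all times. The call of SNHG27 ended without replicate 2 at all times, and the calls of CTH and GFPT1 without replicate 3.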

How the results depend on the processing

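From the 72 h arrays alone 2091 genes were higher and 908 lower, against 4060 and 2499 from all 15 arrays. Leaving out 1 array or 1 replicate number at a time gave 2833 to 4019 higher and 1380 to 2366 lower at 72 h, and 375 to 513 at least 2-fold higher and 17 to 42 at least 2-fold lower. Arrays scaled to the same spread gave 9 at least 2-fold lower. For 72 h against 48 h these settings gave 0 to 416 higher and 0 to 689 lower, both highest counts being without 72 h replicate 1; without replicate 1 at all times 25 were higher and 65 lower. Without 72 h replicate 1, settings chosen after seeing the data gave 180 higher and 368 lower with no dye term, and 96 and 239 with array weights. Against 6 h, leaving out 1 array or 1 replicate number at a time gave 399 to 1726 higher and 149 to 1751 lower. With all arrays and no dye term 847 were lower than at 6 h. HBE1, not called at −0.14, lay between −0.32 and 0.023 over the settings that leave out arrays, with the opposite sign at 0.023 without replicate 1, at 72 h or at all times. With the replicate block 4080 genes were higher and 2514 lower, and no call of a named gene changed. The causes were not tested. The spread is shared over times, and the 72 h arrays had low weights, so errors at 72 h may be too small; without levels, dim genes cannot be told from bright ones.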
